A study of Mus musculus with 5 samples.

Results

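A group of genes labelled as Paneth cell lysozyme and defence genes was compared between intestinal tumours and normal intestine. Which cells made these RNAs was not tested, and Lyz2, Nupr1 and Habp2 are described below by roles that are not particular to Paneth cells. The 7 genes were chosen by name, and all probe sets that GEO's platform annotation assigns to them were used. Of these genes, 6 were represented on the array (Lyz1, Lyz2, Itln1, Nupr1, Mptx1 and Habp2), by 10 of the 22626 probe sets tested. None of the 10 was annotated to several genes. Ang4, which encodes a microbicidal ribonuclease, had no assigned probe set and was not analysed here.

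The tumour group held 3 arrays of intestinal tumour epithelium from Apc1638N mice, named 16, 18 and 2. The wild-type group held 2 arrays of normal intestinal epithelium from C57Bl6/J mice, named 36 and 62. Both groups had the strain C57Bl6/J, were male and 8 months old, and were sampled by laser capture, which cuts selected epithelial cells out of a tissue section. Apc1638N is a truncating allele of Apc, a scaffold protein that restrains Wnt signalling. As the allele is the genotype of the mice, the mutation is present throughout the animal. The labels give no gut segment and do not tie each array to a separate mouse, so the p-values reflect no more than the spread between these samples.

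Paneth cells sit at the base of the crypts of the small intestine, beside the stem cells, and their position and maturation depend on Wnt signals. They release granules with lysozyme, alpha-defensins, lectins, phospholipase and ribonuclease into the crypt lumen, where these proteins restrain bacteria. The mouse has a pair of lysozyme genes. Lyz1 is the form of Paneth cells, and Lyz2 is the form of macrophages and neutrophils.

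Lyz1 and Lyz2 neighbour each other on chromosome 10, with 0 genes between them in the RefSeq gene table of GRCm38.p6. Their upstream sequences are shown because the neighbours are near copies. These bases lie before the start, so they do not show whether the transcripts share array probes. The 250 bases before each start, credited to RefSeq with build GRCm38.p6 and read 5′ to 3′ on the minus strand, lie at chr10:117292869-117293118 (Lyz1) and chr10:117282273-117282522 (Lyz2). Capitals mark the longest run identical in both, 50 bases that end at the base before the start.
Lyz1: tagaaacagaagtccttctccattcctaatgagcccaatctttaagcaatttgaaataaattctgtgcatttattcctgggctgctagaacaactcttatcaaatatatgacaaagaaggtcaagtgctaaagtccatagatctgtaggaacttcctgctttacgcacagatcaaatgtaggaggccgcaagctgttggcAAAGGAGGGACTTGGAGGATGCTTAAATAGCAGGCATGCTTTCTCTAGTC
Lyz2: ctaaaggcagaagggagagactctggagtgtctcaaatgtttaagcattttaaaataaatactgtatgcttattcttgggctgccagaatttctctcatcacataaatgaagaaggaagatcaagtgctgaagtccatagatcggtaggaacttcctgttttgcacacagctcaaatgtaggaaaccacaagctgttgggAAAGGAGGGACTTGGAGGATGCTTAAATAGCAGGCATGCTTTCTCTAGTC
In a global alignment 200 of 252 columns were identical (79.4%), with 48 mismatches and 4 gap columns. No match was found in either window to CTTTGAT or CTTTGAA, forms of the TCF motif through which Wnt signals act, on either strand. Those words occurred in 3.21% and 4.46% of the 32851 upstream windows of the same length.

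Values were deposited log2 signals, and changes are tumour minus wild type on that scale. Each was tested in limma across all 22626 probe sets with Benjamini-Hochberg adjustment and a threshold of 0.05. Of the 10 probe sets, 5 passed and all 5 were higher in tumours (3 of Lyz1 and both of Nupr1). Among all probe sets 9.58% passed as higher and 8.72% as lower in tumours. In 8 of the 10 every tumour value lay above both wild-type values, which held for 25.3% of all probe sets. The groups overlapped in Mptx1 and in 1 of the Habp2 probe sets. In bulk samples such as these, more cells of a type and more RNA per cell cannot be told apart.

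**Figure D1:**
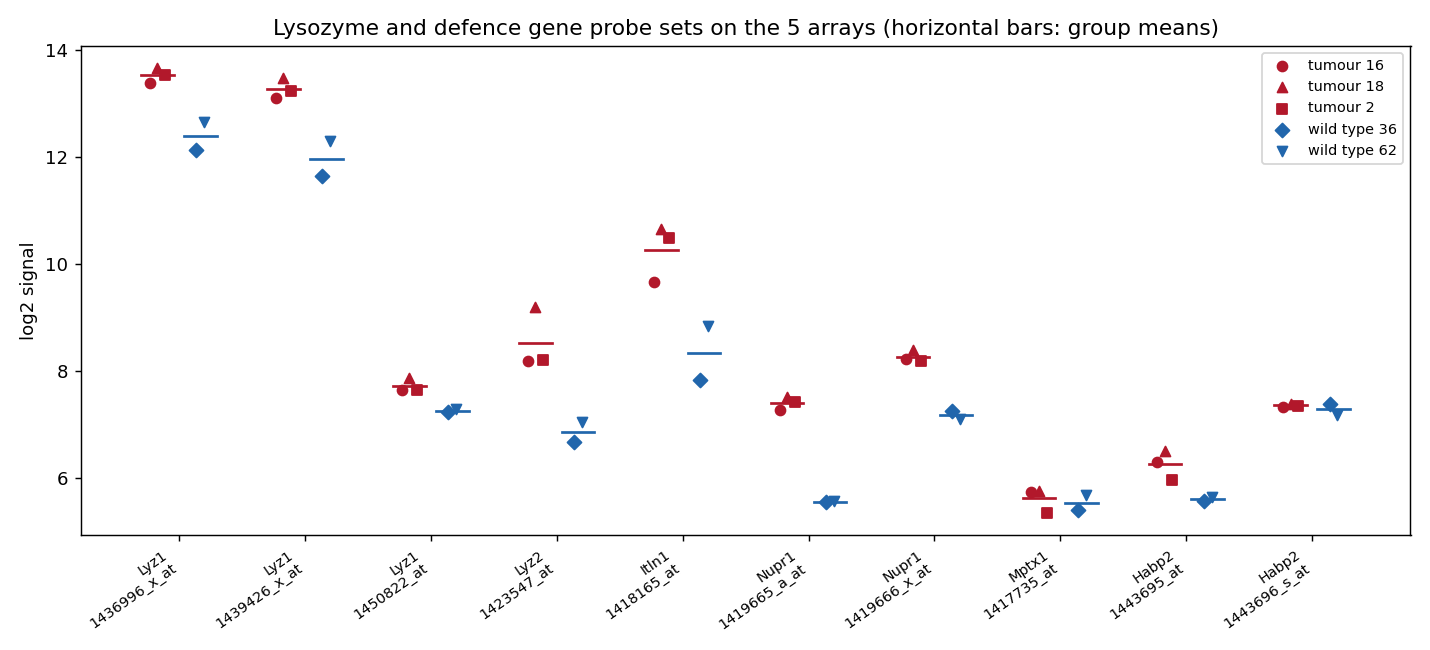
Log2 signal (vertical axis) of the 10 probe sets of 6 genes (horizontal axis) on 3 tumour arrays (red) and 2 wild-type arrays (blue), with horizontal bars at the group means. Tumour points sit above both wild-type points everywhere except in Mptx1 and the Habp2 probe set 1443696_s_at.

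Lyz1, which encodes the Paneth cell lysozyme that cleaves bacterial cell walls, was already bright in wild-type tissue and higher in tumours. Probe set 1436996_x_at read 13.39, 13.66 and 13.54 in tumours 16, 18 and 2, against 12.14 and 12.66 in wild types 36 and 62. The tumours lay within a narrow band and the wild types lay further apart, with no overlap. The means were 13.53 ± 0.14 (SD, n = 3) in tumours and 12.40 ± 0.37 (SD, n = 2) in wild type, a 2.19-fold difference with an interval (95%) of 1.54 to 3.12. The log2 change was 1.13 (SE 0.19, limma adjusted p = 0.0281).

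A second Lyz1 probe set, 1439426_x_at, read 13.12, 13.48 and 13.24 in tumours 16, 18 and 2, against 11.64 and 12.30 in wild types 36 and 62. It had the same order of arrays, with tumour 18 highest and wild type 36 lowest. Its change was 1.31 (SE 0.24, limma adjusted p = 0.0342). Both of these probe sets lay at or above percentile 98.5 of every array. The third, 1450822_at, was much less bright, at percentiles 62.1 to 74.8. It read 7.64, 7.88 and 7.64 in tumours, against 7.24 and 7.29 in wild type. The values of tumours 16 and 2 were exactly tied, and the groups did not overlap. Its change was 0.46 (SE 0.09, limma adjusted p = 0.0422).

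The 3 Lyz1 probe sets thus gave different sizes of rise. The within-array log2 ratio of 1436996_x_at to 1450822_at was higher in tumours by 0.67, and that of 1439426_x_at to 1450822_at by 0.85. Both differences held without overlap of the groups and had an exact two-sided permutation p of 0.1, the smallest that 3 against 2 arrays allow (0.16 when adjusted over the 8 within-array comparisons made). Names ending in _x_at or _s_at mark probe sets whose probes can match several transcripts, and both bright Lyz1 probe sets are of the first kind. Whether Lyz2 RNA adds to their signal was not tested.

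The calls of both bright Lyz1 probe sets depended on every array, and calls over all probe sets also became fewer without any 1 array. Without tumours 16, 18 and 2, 485, 759 and 1875 of all 22626 probe sets passed as higher, against 2167 with all arrays. Leaving out any 1 array gave limma adjusted p between 0.0657 and 0.102 for 1436996_x_at and between 0.0705 and 0.115 for 1439426_x_at, with changes of 0.87 to 1.39 and 0.98 to 1.63. A setting added after seeing the data also left out probe sets that hold tied values within a group. Both kept their call there in each fit without 1 tumour (largest limma adjusted p 0.0298 and 0.0340). In that setting 1618, 1825 and 2869 of all 15762 probe sets passed as higher without tumours 16, 18 and 2. The probe set 1450822_at kept its call only without tumour 18 (adjusted p = 0.0426), and could not be included in the fits without tied values.

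**Figure D2:**
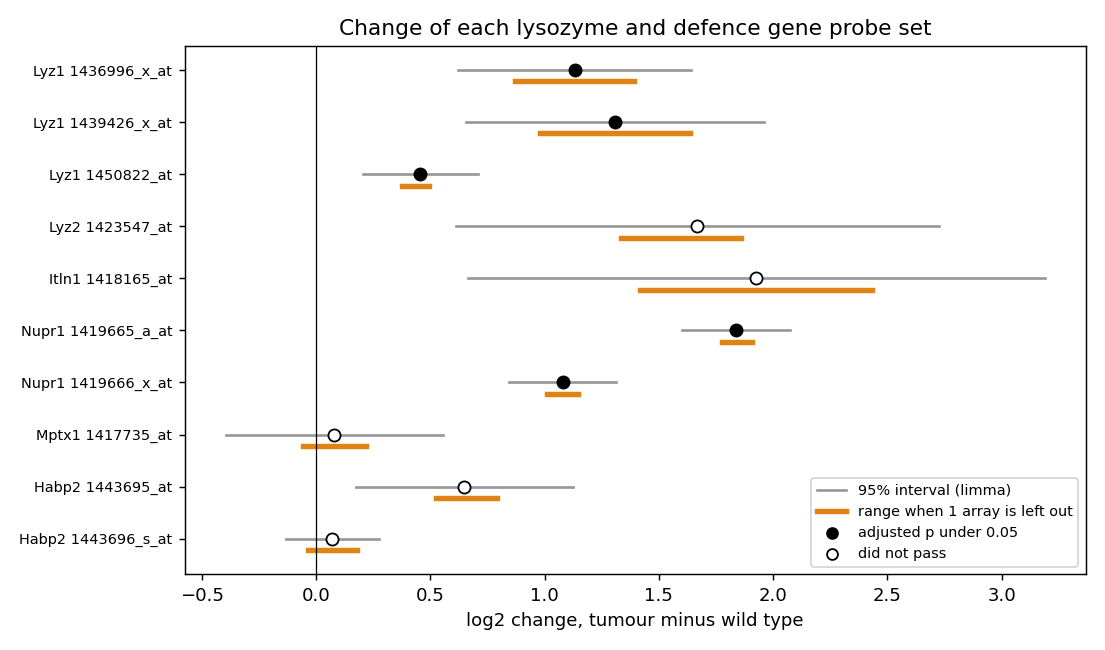
Log2 change, tumour minus wild type (horizontal axis), of the 10 probe sets, with limma's 95% interval in grey and the range over the fits that left out 1 array in orange; filled points passed an adjusted p of 0.05. The changes of Lyz1, Lyz2, Itln1 and Nupr1 stayed above 0 in each of those fits, while the ranges of Mptx1 and of Habp2 1443696_s_at crossed 0.

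Lyz2, the lysozyme of macrophages and neutrophils, gave higher values in tumours but did not pass. Its probe set 1423547_at read 8.19, 9.21 and 8.21 in tumours 16, 18 and 2, against 6.68 and 7.06 in wild types 36 and 62. Tumour 18 stood 0.99 or more above the other tumours, and every tumour lay at least 1.13 above both wild types. The means were 8.54 ± 0.58 (SD, n = 3) in tumours and 6.87 ± 0.27 (SD, n = 2) in wild type. The change was 1.67 (SE 0.39, interval 0.61 to 2.72, limma adjusted p = 0.0569). The adjusted p ran from 0.0202 to 0.230 over 14 alternatives, of which 6 called it and none changed its direction.

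Whether the 2 lysozyme genes changed by the same amount could not be decided at this number of arrays. The log2 ratio of Lyz2 to Lyz1 1436996_x_at was higher in tumours by 0.54 (exact two-sided permutation p = 0.2, 0.229 adjusted). Against 1439426_x_at it was higher by 0.36 (exact p = 0.5), and the groups overlapped. Against 1450822_at it was higher by 1.21 (exact p = 0.1, the smallest possible).

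Markers of cells that use Lyz2 were read beside it, against 10.5% of all genes called higher and 9.92% called lower. The lists are too short for a low count to be set apart from those shares. Of 20 macrophage markers, 1 was called higher (the endotoxin co-receptor Cd14, by 0.94), 1 lower (the protease Ctss, which fell by 1.59) and 18 did not pass, with a median change of -0.004, against 0.004 over all genes. The log2 of their summed signal was 11.80, 12.27 and 11.83 in tumours 16, 18 and 2, against 12.42 and 12.16 in wild types 36 and 62. Their summed signal was thus not higher in tumours as a group, although tumour 18 was the highest of the tumours. Bright genes weigh most in this sum, among them Ctss, at 8.80 to 9.52 in tumours and 10.84 in both wild types. The sum without Ctss was not examined. Itgam, Aif1, Fcgr1, Cd163 and Marco lay below the 25th percentile on every array, while the surface marker Adgre1 differed by 0.12 (limma adjusted p = 0.0787). Of 11 neutrophil markers limma called 0 (0 higher and 2 lower at an unadjusted p under 0.05, Elane by -0.14 and Ngp by -0.11). Changes were above 0 in 6 and below 0 in 5. The largest were those of S100a8 (1.32), Ltf (0.82) and S100a9 (0.45), without a call. Log2 sums of the 11 markers were 10.39, 10.73 and 10.39 in tumours 16, 18 and 2, against 10.34 and 10.30 in wild type.

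Fibroblast markers had higher values in tumours, mostly without passing, against 10.5% of all genes called higher. All 8 had changes above 0 with a median of 1.55, of which 7 did not pass and 1 was called higher (the matrix proteoglycan Dcn, by 2.60). Their log2 sums were 12.46, 13.39 and 11.23 in tumours 16, 18 and 2, against 10.56 and 10.21 in wild types 36 and 62. Every tumour sum lay above both wild-type sums. Tumour 18 had the highest sum, as it had the highest value of all 3 Lyz1 probe sets, Lyz2, Itln1 and both Nupr1 probe sets. Tumours 16 and 2 had fibroblast sums of 12.46 and 11.23 and Lyz2 values of 8.19 and 8.21. Of the wild types, 36 had the higher sum and the lower Lyz2 value. The part of stromal cells in these results was not tested. Without tumour 18 the change of Lyz2 was 1.33 (limma adjusted p = 0.0503).

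**Figure D3:**
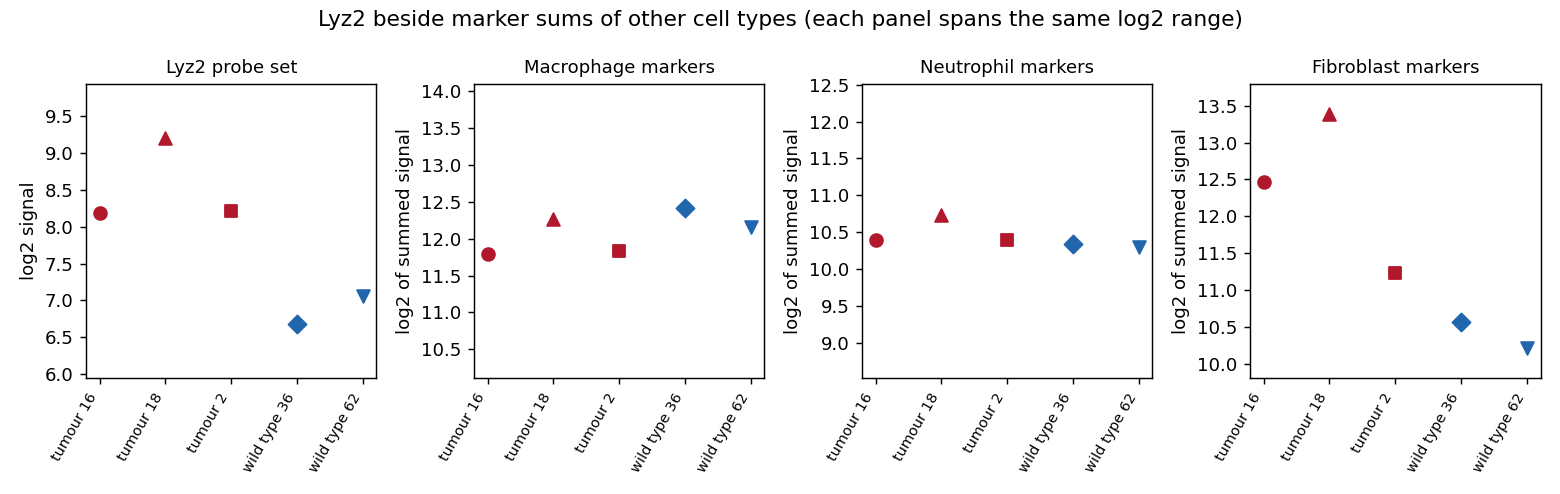
Log2 signal of Lyz2 (left panel) and log2 of the summed signal of macrophage, neutrophil and fibroblast markers (other panels) on each tumour (red) and wild-type (blue) array. Tumour 18 is the highest tumour in every panel, and the tumour and wild-type arrays overlap only in the macrophage sum.

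Itln1 encodes intelectin, a secreted lectin that binds sugars on microbial surfaces and is made in mouse Paneth and goblet cells. Its probe set 1418165_at read 9.67, 10.65 and 10.49 in tumours 16, 18 and 2, against 7.84 and 8.85 in wild types 36 and 62. Tumour 16 was the lowest tumour and still 0.82 above the higher wild type, while the wild types themselves were 1.01 apart. The means were 10.27 ± 0.53 (SD, n = 3) in tumours and 8.34 ± 0.72 (SD, n = 2) in wild type. The change was 1.93 (SE 0.46, interval 0.67 to 3.19) and did not pass (limma adjusted p = 0.0612). Over 14 alternatives its adjusted p ran from 0.0219 to 0.213, and 5 of them called it.

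Goblet cell markers were read beside Itln1, against 10.5% of all genes called higher and 9.92% called lower. Of 10 measured, Spink4, a secreted protease inhibitor, rose by 1.67, Fcgbp, a protein of the mucus layer, fell by 1.25, and 8 did not pass. Among those 8, Retnlb and Agr2 differed by 1.89 and 1.59, and Clca1 and Zg16 by -3.24 and -1.57. Log2 sums of the 10 markers were 14.58, 14.63 and 14.58 in tumours 16, 18 and 2, against 14.58 and 14.72 in wild type. Bright genes weigh most in such sums.

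Nupr1 encodes a small chromatin-associated protein that is induced by many kinds of cell stress, and it gave the smallest p-values of the 6 genes. Probe set 1419665_a_at read 7.27, 7.53 and 7.42 in tumours 16, 18 and 2, against 5.55 and 5.59 in wild types 36 and 62. The wild-type values lay at percentiles 13.2 and 13.7 of their arrays, and no measure of background was used here, so the size of the difference is uncertain. The change was 1.84 (SE 0.09, limma adjusted p = 0.00511). Probe set 1419666_x_at read 8.22, 8.39 and 8.19 in tumours, against 7.26 and 7.12 in wild type. These groups were 0.93 apart at their nearest, and the change was 1.08 (SE 0.09, limma adjusted p = 0.00784), a 2.11-fold difference with an interval (95%) of 1.80 to 2.48.

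The 2 Nupr1 probe sets differed in the size of the rise by 0.76 (exact two-sided permutation p = 0.1, the smallest possible, 0.16 adjusted). The call of 1419665_a_at was lost without wild type 62 (limma adjusted p = 0.0595). That of 1419666_x_at was lost without wild type 36 (0.0561) or wild type 62 (0.0694). In the setting added after seeing the data that drops tied probe sets as well, both kept their call in each fit without 1 tumour. Without wild type 62 alone, limma called 0 of all 22626 probe sets, with 6682 at an unadjusted p under 0.05.

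Stress response genes were mostly without a call. Of 15 genes of the endoplasmic reticulum stress and integrated stress responses, 0 passed as higher in limma (1 at an unadjusted p under 0.05), 2 passed as lower and 13 did not pass, with a median change of -0.01. Among all 12393 genes, each read by its brightest probe set, 10.5% passed as higher and 9.92% as lower. Herpud1, which helps degrade misfolded proteins, fell by 0.84 (SE 0.17, limma adjusted p = 0.0452), and the chaperone Hspa5 fell by 0.61 (SE 0.10, adjusted p = 0.0295). Both were read by probe sets ending in _a_at, and when probe sets ending in _a_at, _s_at or _x_at were left out, 0 of the 12 genes still measured passed as lower. The count of 2 was also 0 without tumour 16, tumour 18, wild type 36 or wild type 62, and 1 without tumour 2. When a gene's probe sets were averaged, 2 of 15 genes passed as higher and 2 as lower. The factors Atf4 and Ddit3, which drive stress genes, differed by 0.09 and -0.25 and did not pass. Asns had the largest change of the list, 1.16 (SE 0.29, limma adjusted p = 0.0671), and did not pass either.

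Upstream of Nupr1 a word of the amino acid response element, through which Atf4 is known to act, was searched for as TGATGNAA on both strands of the 250 bases before the start (RefSeq, GRCm38.p6, chr7:126625471-126625720, minus strand). Capitals mark the single match, which is on the opposite strand and ends 103 bases before the start.
Nupr1: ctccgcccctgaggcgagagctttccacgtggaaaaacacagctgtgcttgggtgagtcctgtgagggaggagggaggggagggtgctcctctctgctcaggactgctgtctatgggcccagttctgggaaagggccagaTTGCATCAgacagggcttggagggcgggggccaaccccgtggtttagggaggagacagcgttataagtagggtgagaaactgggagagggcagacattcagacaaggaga
The word occurred in 3.45% of all upstream windows of this length. A match is a description of the letters, and binding was not measured here.

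Mptx1, a mucosal pentraxin related to C-reactive protein, was dim on every array. Its probe set 1417735_at read 5.75, 5.77 and 5.35 in tumours 16, 18 and 2, against 5.41 and 5.68 in wild types 36 and 62. The groups overlapped, and all values lay at percentiles 9.90 to 17.4, so that a difference in Mptx1 RNA was not detectable here. The change was 0.08 (interval -0.39 to 0.55, limma adjusted p = 0.782).

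Habp2 encodes a serine protease of blood plasma that binds hyaluronan and can activate coagulation factor VII. Probe set 1443695_at read 6.30, 6.52 and 5.98 in tumours 16, 18 and 2, against 5.58 and 5.65 in wild types 36 and 62. All tumours were higher, at percentiles of at most 38.8, while the wild-type values lay at percentiles 13.7 and 15.2, so that the size of the difference is uncertain. The change of 0.65 (SE 0.17, limma adjusted p = 0.0776) did not pass. It passed without tumour 2 (change 0.79, adjusted p = 0.0350) and without tied probe sets (0.0355). The second Habp2 probe set, 1443696_s_at, read 7.34, 7.39 and 7.36 in tumours, against 7.40 and 7.18 in wild type. The groups overlapped there, with a change of 0.07 (interval -0.13 to 0.27, adjusted p = 0.548), and the 2 probe sets differed in their change by 0.58 (exact two-sided permutation p = 0.2).

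Other genes of the same families were read against 10.5% of all genes called higher and 9.92% called lower. Of 6 measured ribonuclease A genes other than Ang4, 0 passed in limma (0 at an unadjusted p under 0.05). The secreted pancreatic-type ribonuclease Rnase1 was the furthest from 0 at 1.06 (adjusted p = 0.189), a gene chosen after its values were seen. Of 3 lysozyme-like genes 0 passed (0 at an unadjusted p under 0.05), and of 5 other pentraxin family genes 0 passed (1 at an unadjusted p under 0.05). Of 15 plasma and epithelial serine proteases and their inhibitors, Plat, the tissue plasminogen activator, rose by 1.72 (SE 0.33, limma adjusted p = 0.0369) and 14 did not pass. Plat was not called without tumour 18, wild type 36 or wild type 62. Ang2, Ang3, Lyzl4, Ptx3 and F11 of these lists lay below the 25th percentile on every array. The lists are too short for a low count to be set apart from the shares over all genes.

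Other Paneth cell products changed in both directions. Of 31 genes listed, 12 were measured, of which 4 rose, 3 fell and 5 did not pass, with a median change of 0.40. Among all genes 10.5% passed as higher and 9.92% as lower. Wfdc18, a secreted protein with a protease inhibitor fold, rose by 4.39 (SE 0.45) and Mmp7, the protease that activates alpha-defensins in mouse Paneth cells, by 3.71 (SE 0.31). The phospholipase Pla2g2f (2.24) and colipase, Clps (2.43), completed the rises. Wfdc18 and Clps were read by probe sets ending in _s_at and _a_at, and without probe sets of such suffixes 2 of 11 genes passed as higher and 3 as lower. Uroguanylin, Guca2b, which regulates fluid secretion, fell by 3.17 (SE 0.34), and the antibacterial lectin Reg3a fell by 2.94 (SE 0.13). Its relative Reg3g fell by 2.52 (SE 0.35). Guca2b, Reg3a and Reg3g are also made by enterocytes. Of 9 measured enterocyte markers 6 fell (2 without wild type 36 and 0 without wild type 62, but 5 in each case when tied probe sets were left out as well), and the part of enterocytes in the falls of these products was not tested. The alpha-defensin Defa3 lay below the 25th percentile on every array, at 5.37, 5.36 and 5.30 in tumours and 5.40 and 5.36 in wild type. The other alpha-defensins of the list were not analysed here. Bright Lyz1 was thus measured in samples where this defensin probe set was dim, and the sensitivity of that probe set was not tested.

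Of 18 measured genes that specify Paneth cells or carry their niche signals, 4 rose, 0 fell (0 at an unadjusted p under 0.05) and 14 did not pass, with a median change of 0.03. Among all genes 10.5% passed as higher and 9.92% as lower. Sox9, a transcription factor needed to form Paneth cells, rose by 1.55 (SE 0.11, limma adjusted p = 0.00681). Cd24a, a surface protein of Paneth cells among others, rose by 1.18 (SE 0.21), Ephb3, the receptor that positions Paneth cells at the crypt base, by 0.69 (SE 0.12), and the autophagy gene Atg16l1 by 0.29 (SE 0.05). Atoh1 and Gfi1, factors of the secretory lineage, differed by 0.04 and 0.01, and Xbp1, a factor of secretory capacity, by -0.14, and none of them passed. The largest changes without a call were those of Spdef (0.98, limma adjusted p = 0.107) and Slc30a2 (-0.85, limma adjusted p = 0.190). Fits without 1 array called fewer probe sets over the whole array as well. Without tumours 16, 18 and 2, 485, 759 and 1875 of all 22626 passed as higher, against 2167 with all arrays. Leaving out 1 array gave between 0 and 2 genes called higher in this list and between 0 and 3 among the Paneth cell products, the counts of 0 being those without wild type 36 or 62. The 3 falls among the products became 1 without wild type 36 and 0 without wild type 62, and 2 or 3 without a tumour. The fits without 1 tumour were repeated in the setting added after seeing the data that drops tied probe sets. They called 3 or 5 genes of this list higher, and 5 of the products higher and 3 lower.

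**Figure D4:**
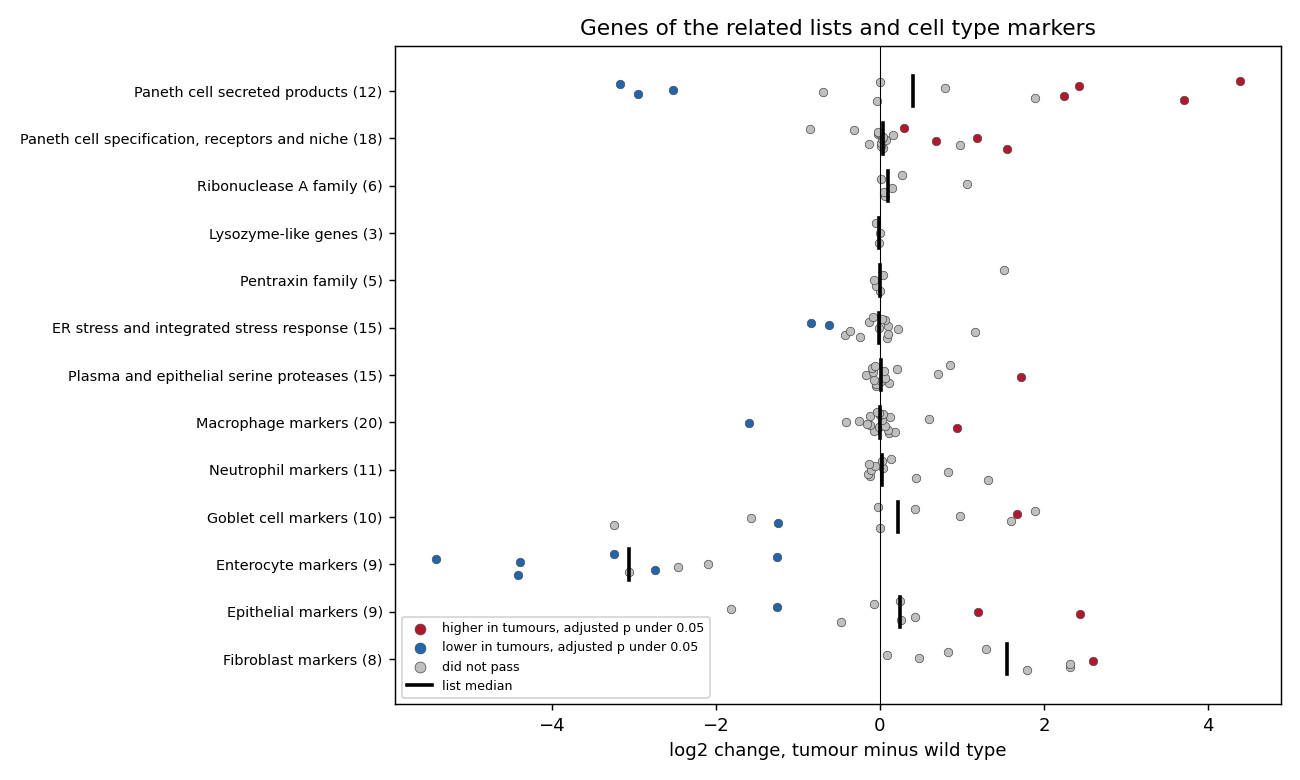
Log2 change, tumour minus wild type (horizontal axis), of each measured gene of the related lists and cell type marker lists, with the number measured in brackets and black bars at the list medians. The Paneth cell products spread from -3.17 to 4.39, while most genes of the stress, pentraxin and macrophage lists sit near 0.

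RNA quality also moved with the groups. The difference between the 3′ and 5′ beta-actin control signals was 3.999, 4.248 and 4.209 in tumours 16, 18 and 2, against 3.316 and 2.511 in wild types 36 and 62. For Gapdh it was 4.50, 4.59 and 4.83 in tumours, against 4.01 and 3.67 in wild type. Both were higher in every tumour than in either wild type, so RNA quality and group cannot be told apart here. The part of RNA quality in the changes, and in the differences between probe sets of Lyz1, Nupr1 and Habp2, was not tested. Epithelial markers were read against 10.5% of all genes called higher and 9.92% called lower. Of 9, the keratins Krt18 and Krt19 rose by 2.44 and 1.20, Vil1, which bundles actin in the brush border, fell by 1.26, and 6 did not pass. Among those 6, Krt8 read 13.34 to 13.71 in tumours and 13.08 in both wild types, Krt20 differed by -1.82 and Epcam by -0.48. Log2 sums of the epithelial markers were 14.69 to 15.12 in tumours and 14.66 to 14.84 in wild type.

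The genes most like each of the 4 that spanned at least 1 log2 unit were found as those with the smallest root mean square difference in mean-centred log2 values over the 5 arrays. For Lyz1 these were Sfxn3 (0.09), Cct2 (0.09) and Myc (0.10), and for Lyz2 they were Nedd4 (0.11), Cnn3 (0.11) and Nptx2 (0.16). For Itln1 they were Gpx2 (0.25), Kcne3 (0.27) and Rbms1 (0.32), and for Nupr1 they were Snrnp40 (0.03), Rpl19 (0.03) and Ybx3 (0.04). These are descriptions over 5 arrays, in which any gene with a group difference of like size comes close.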

How the data were processed

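Expression was measured on 5 Affymetrix arrays with biotin-labelled RNA. The authors deposited log2 values for 22690 probe sets, made with the R package affy, per the submitters' processing notes. The scale was inferred from the range of 3.38 to 14.3. Background correction, normalization and summary method are not given in the sources used here. Values were used as deposited (array medians 6.81 to 6.87), without 64 control probe sets. Names came from GEO's platform annotation (20380 probe sets with 1 symbol, 691 with several, 1555 with none), and 0 needed an update through RefSeq.

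All 22626 probe sets were fitted in limma 3.58.1 (R 4.3.3) with lmFit and eBayes, group as the only term and 3 residual degrees of freedom. Ties within a group occurred in 6864 probe sets and lower the estimated spread. Related genes were read by their brightest probe set with 1 symbol, and 137 of 177 genes in 13 lists were measured. Single ratios were tested by exact permutation over the 10 assignments of arrays. Upstream sequences of all 7 genes were in the RefSeq table, and those of Lyz1 and Lyz2 were aligned with Biopython 1.88. The fit was tested on simulated data.

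The genes and lists were chosen with earlier results of these data known. Every probe set of the genes is named, and of each related list up to 4 called genes with the largest change. Clps, Pla2g2f, Reg3g, marker genes and genes without a call were named after seeing their values, to describe a list. Alternatives were quantile normalization, median centring, a filter at percentile 40 of mean signal, trend and robust options of eBayes, array weights, 1 probe set or the mean per gene, leaving out probe sets with the suffix _x_at, _s_at or _a_at or with tied values, a 2-fold minimum and leaving out each array.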

Additional observations from a re-analysis of the deposited data

How the results depend on the processing

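The count of 5 called probe sets of 10, all higher in tumours, lay between 4 and 7 under quantile normalization, median centring, the filter on low signal, trend and robust settings, array weights, averaging of a gene's probe sets, a 2-fold minimum and without tied probe sets. It was 2 of 6 with 1 probe set per gene (Lyz1 and Nupr1) and 1 of 5 without probe sets ending in _x_at, _s_at or _a_at, where fewer probe sets were tested. Leaving out 1 array gave 0 to 3, and 4 to 6 of 9 in a setting added after seeing the data that drops tied probe sets too. Calls over all 22626 probe sets moved too. As higher in tumours, 2167 passed in the main fit, 2623 with quantile normalization and 2353 with median centring. Without tumours 16, 18 and 2, 485, 759 and 1875 passed as higher. Without probe sets of the listed suffixes 1024 of 15605 passed as higher, and without tied ones 2724 of 15762. The cause of the lower member counts was not tested. Of the changes of single probe sets, that of Mptx1 ran from -0.058 (without wild type 36) to 0.22 (without wild type 62) when 1 array was left out. That of Habp2 1443696_s_at ran from -0.034 (without wild type 62) to 0.18 (without wild type 36). Both reversals also appeared without tied probe sets, and neither change was called. All other changes kept their direction in the alternatives run. The difference between Lyz2 and Lyz1 lay between 0.27 and 0.70 when 1 array was left out. No paired analysis was possible because the tumours and the normal epithelium came from mice of different genotype. The number of arrays limits the precision, and a wild-type group of 2 has little information on its own spread.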
